A study of Mus musculus with 5 samples.

Results

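The miR-34/miR-449 family was followed in small RNA of mouse testis. Its members are taken by name, with no threshold on their values, and are mmu-miR-34a-5p, mmu-miR-34b-5p, mmu-miR-34b-3p, mmu-miR-34c-5p, mmu-miR-34c-3p, mmu-miR-449a-5p and mmu-miR-449a-3p, 7 of the 736 mature miRNAs listed in the deposited sheet of counts. The testes came from C57BL/6 mice aged 6 months. Mtdh-/- mice carry a deletion of exon 3 of Mtdh, the gene of metadherin, and gave 3 libraries, and wild-type mice gave 2 libraries. The labels do not say whether each library is a separate animal, so each p-value speaks of the spread among these 5 samples alone, and that spread may be technical. Mtdh encodes a protein and not a miRNA, so these files hold no check of the knockout label.

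miRNAs are cut from hairpin transcripts, and either arm of the stem, named 5p or 3p, can be kept by an Argonaute protein while the opposite arm is usually degraded. The bases just after the first base, called the seed, pair with target mRNAs. The family is known for targets in the cell cycle and for induction of miR-34a by p53. In the mouse, the Mir34b/Mir34c cluster and the cluster of Mir449a and Mir449c are known to be active in meiotic and postmeiotic male germ cells and in multiciliated cells, and loss of both clusters is known to cause male infertility.

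The mature sequences are shown because they define the family and set which members can share targets. Capitals mark the seed, bases 2 to 8 from the 5′ end, in the RefSeq sequences of GRCm38.p6. miR-34c-5p is not shown, since the RefSeq set used here held no mature entry for it.
mmu-miR-34a-5p: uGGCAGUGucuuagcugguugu
mmu-miR-34b-5p: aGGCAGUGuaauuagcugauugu
mmu-miR-449a-5p: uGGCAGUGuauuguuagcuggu
mmu-miR-449c-5p: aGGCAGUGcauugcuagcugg
mmu-miR-34b-3p: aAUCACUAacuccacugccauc
mmu-miR-34c-3p: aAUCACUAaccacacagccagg
mmu-miR-449a-3p: cAGCUAACaugcgacugcucuc

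The seed GGCAGUG was shared by 5 entries of the sheet, the 4 members that are 5p arms (miR-34a-5p, miR-34b-5p, miR-34c-5p and miR-449a-5p) and miR-449c-5p, which is no member. AUCACUA was shared by miR-34b-3p and miR-34c-3p alone, and AGCUAAC was found in miR-449a-3p alone. Aligned from the first base with no gap allowed, miR-34a-5p and miR-449a-5p were identical at 15 of 22 positions, and miR-34a-5p and miR-34b-5p at 11 of 22. miR-34b-5p has 23 bases and miR-34a-5p 22. These 5p arms share bases after the seed that lie at shifted positions, so a count without gaps understates their likeness. The 3p arms miR-34b-3p and miR-34c-3p were identical at 17 of 22 positions.

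The hairpins lie on 3 chromosomes. The files name no genome build, so the positions are those of the annotation in GRCm38. Mir34a lies at chr4:150068454-150068555 on the plus strand, and its end overlaps an exon of the unclassified gene model Gm37795 on the same strand. Mir34b at chr9:51103562-51103645 and Mir34c at chr9:51103034-51103110 lie on the minus strand with 451 bases between them. Both are inside the span of Btg4, which runs on the plus strand, and overlap none of its exons. Mir449a at chr13:113037534-113037624 and Mir449c at chr13:113035983-113036091 lie on the plus strand in the span of Cdc20b, on the same strand as their host and outside its exons.

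The hairpins of miR-34b and miR-449a are shown with both mature arms in capitals. Both arms of miR-34c were measured too, but its hairpin is not shown, for the same lack of a mature entry.
Mir34b hairpin: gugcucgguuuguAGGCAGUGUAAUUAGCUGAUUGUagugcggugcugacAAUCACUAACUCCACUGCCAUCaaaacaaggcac
Mir449a hairpin: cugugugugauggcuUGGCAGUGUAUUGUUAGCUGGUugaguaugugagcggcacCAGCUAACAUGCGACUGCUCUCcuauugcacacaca

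Counts of miRNAs totalled 720259, 118475 and 258433 in the Mtdh-/- libraries 1, 2 and 3, and 198640 and 474839 in the wild-type libraries 1 and 2. Levels are given in CPM, counts of all isoforms of a miRNA per 1000000 miRNA counts of the library. A low total gives a less certain level, and Mtdh-/- 2 was the shallowest library. The smallest count above 0 in the sheet was 2, and therefore no lower limit is given for a miRNA with 0 counts.

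miR-34c-5p was on average the most abundant member and ranked 7 among 717 miRNAs by its mean over the 5 libraries. Its level was 34614, 5461 and 32651 CPM in Mtdh-/- 1, 2 and 3, against 49512 and 10846 CPM in wild type 1 and 2. It was high in Mtdh-/- 1, Mtdh-/- 3 and wild type 1 and low in Mtdh-/- 2 and wild type 2, so each genotype held high and low libraries and the groups overlapped. The mean was 24242 ± 16294 CPM in Mtdh-/- (SD, n = 3) and 30179 ± 27341 CPM in wild type (SD, n = 2), and the log2 fold change was -0.20 ± 1.08 (SE). The highest library held 9.07 times the level of the lowest, and 189 of the 246 tested miRNAs varied less over the 5 libraries by the SD of their log2 levels. The fold change turned to 0.27 without Mtdh-/- 2 and to 1.73 without wild type 1.

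miR-449a-5p, which ranked 15, stood at 10019, 6432 and 5228 CPM in Mtdh-/- 1, 2 and 3, against 7128 and 36924 CPM in wild type 1 and 2. Wild type 2 was far above the 4 other libraries, while wild type 1 lay within the range of the Mtdh-/- libraries. Its mean was 7226 ± 2492 CPM in Mtdh-/- (SD, n = 3) and 22026 ± 21069 CPM in wild type (SD, n = 2). The log2 fold change was -1.21 ± 0.76 (SE), the lowest of the 7 members, and it rested on wild type 2: without that library it was 0.0022.

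miR-34a-5p, the member that p53 is best known to induce, stood at 6548, 3570.4 and 2565 CPM in Mtdh-/- 1, 2 and 3, against 2326 and 4879.5 CPM in wild type 1 and 2. Mtdh-/- 1 was the highest library and wild type 1 the lowest, and the genotypes overlapped. The mean was 4228 ± 2071 CPM in Mtdh-/- (SD, n = 3) and 3603 ± 1806 CPM in wild type (SD, n = 2), with a log2 fold change of 0.57 ± 0.75 (SE). Without Mtdh-/- 1 it was -0.28. The opposite arm, miR-34a-3p, is listed at 0 in all 5 libraries.

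miR-34b-5p, the 5p arm of the cluster partner of miR-34c, stood at 2717, 2144 and 1022 CPM in Mtdh-/- 1, 2 and 3, against 1898 and 1521 CPM in wild type 1 and 2. The Mtdh-/- libraries lay on both sides of the wild-type libraries. The mean was 1961 ± 862 CPM in Mtdh-/- (SD, n = 3) and 1709 ± 267 CPM in wild type (SD, n = 2), with a log2 fold change of 0.39 ± 0.75 (SE) that was -0.27 without Mtdh-/- 1.

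In counts of all isoforms, the 3p arms were scarcer than the 5p arms of their hairpins in every library. In counts of the exact mature sequence, miR-34b-3p had 157 counts in Mtdh-/- 3, against 154 of miR-34b-5p. The levels that follow are of all isoforms. miR-34b-3p stood at 348, 1114 and 871 CPM in Mtdh-/- 1, 2 and 3, against 665 and 1240.4 CPM in wild type 1 and 2. miR-34c-3p stood at 121, 397 and 279 CPM in Mtdh-/- 1, 2 and 3, against 222 and 366 CPM in wild type 1 and 2. For both, Mtdh-/- 1 was the lowest library, Mtdh-/- 2 and wild type 2 were the high ones, and the genotypes overlapped. The log2 fold changes were -0.21 ± 0.56 (SE) for miR-34b-3p and -0.08 ± 0.57 (SE) for miR-34c-3p. Without Mtdh-/- 1 they were 0.0058 and 0.13, and without wild type 2 that of miR-34c-3p was 0.019.

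miR-449a-3p rested on few counts, with 13, 7 and 8 counts in Mtdh-/- 1, 2 and 3, against 15 and 25 counts in wild type 1 and 2. These are 18.05, 59.1 and 31.0 CPM in Mtdh-/-, against 75.5 and 52.6 CPM in wild type. Wild type 1 was the highest library and Mtdh-/- 1 the lowest, and Mtdh-/- 2 lay between the wild-type libraries. The log2 fold change was -0.87 ± 0.87 (SE), and it was below 0 whichever library was left out, with values of -1.32 to -0.24.

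**Figure D1:**
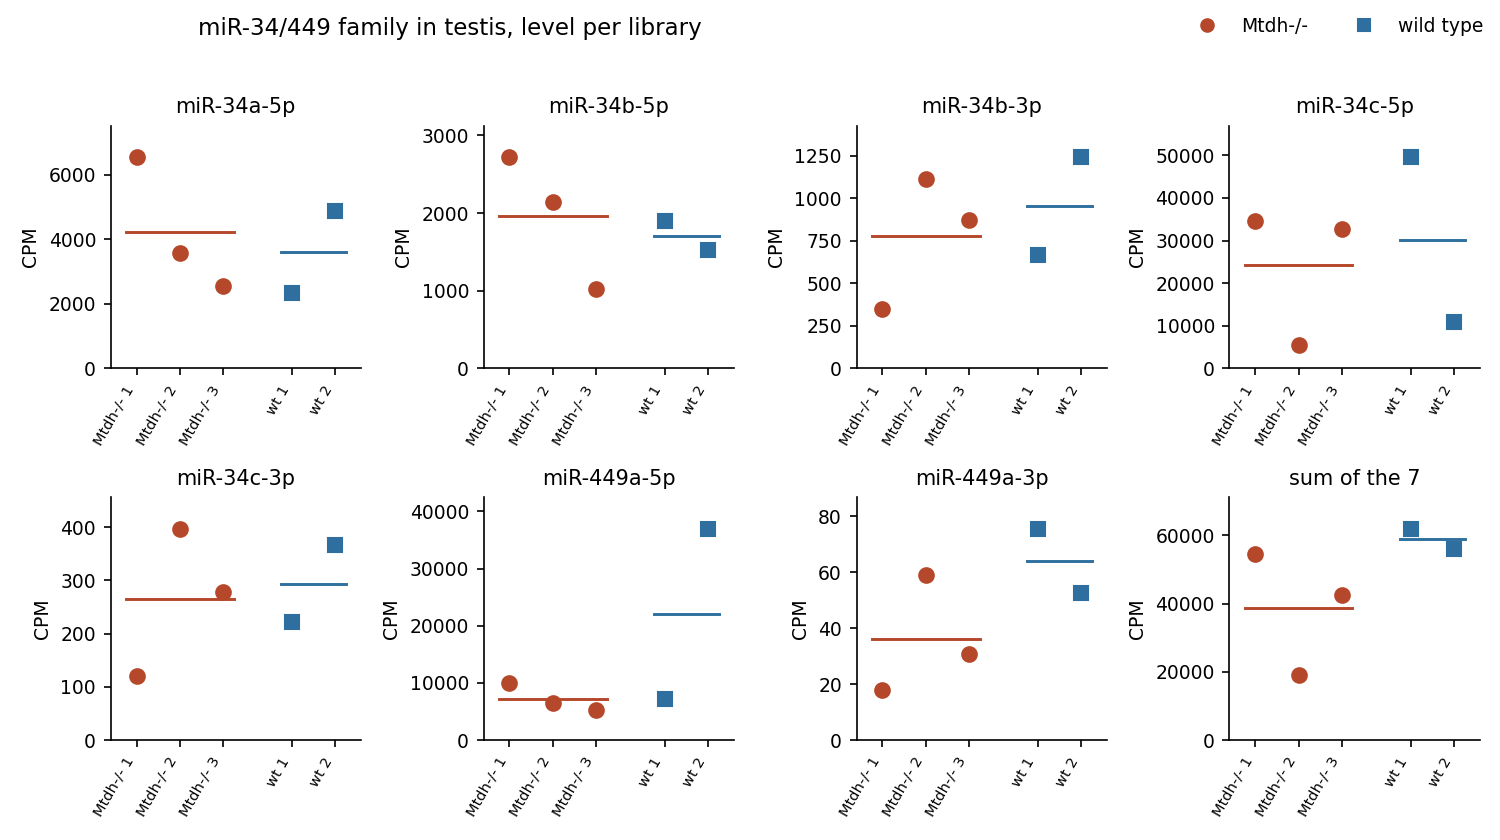
Level of each member in CPM of all isoforms, and of the sum of the 7, in 3 Mtdh-/- libraries (circles) and 2 wild-type libraries (squares). Lines are the means of each genotype, and in every panel of a single member the genotypes overlap.

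All 7 members passed the filter on low counts that left 246 miRNAs. In edgeR's quasi-likelihood fit of those, with p-values adjusted by Benjamini-Hochberg over the 246, 0 of 7 members passed the threshold of 0.05, where 0% of all tested miRNAs did. Their adjusted p-values were 0.867 to 0.973. At an unadjusted p under 0.05 there were 0 members, against 2.85% of all tested miRNAs. DESeq2 called 0 of 512 miRNAs, of which 19 had an unadjusted p under 0.05. The count was also 0 of 246 for limma fitted to the normalized values that the authors deposited, with 3 below 0.05 before adjustment. Without the filter edgeR called 5 of 512, none of them a member. No member separated the genotypes without overlap, while 14.2% of tested miRNAs did so in one direction or the other. The fold change was below 0 for 5 of the 7 members, against 44.3% of all tested miRNAs, with a median of -0.20 for the members and 0.19 for all. Single libraries moved this: 4 members were below 0 without Mtdh-/- 2 or without wild type 1, with medians of -0.37 and -0.15, and 3 without wild type 2, with a median of 0.0022. Without Mtdh-/- 3 or Mtdh-/- 1 there were 5, with medians of -0.53 and -0.28. That median of all miRNAs was 0.10 with RLE scaling and 0.02 with library totals alone, where the members' medians were -0.29 and -0.30.

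**Figure D2:**
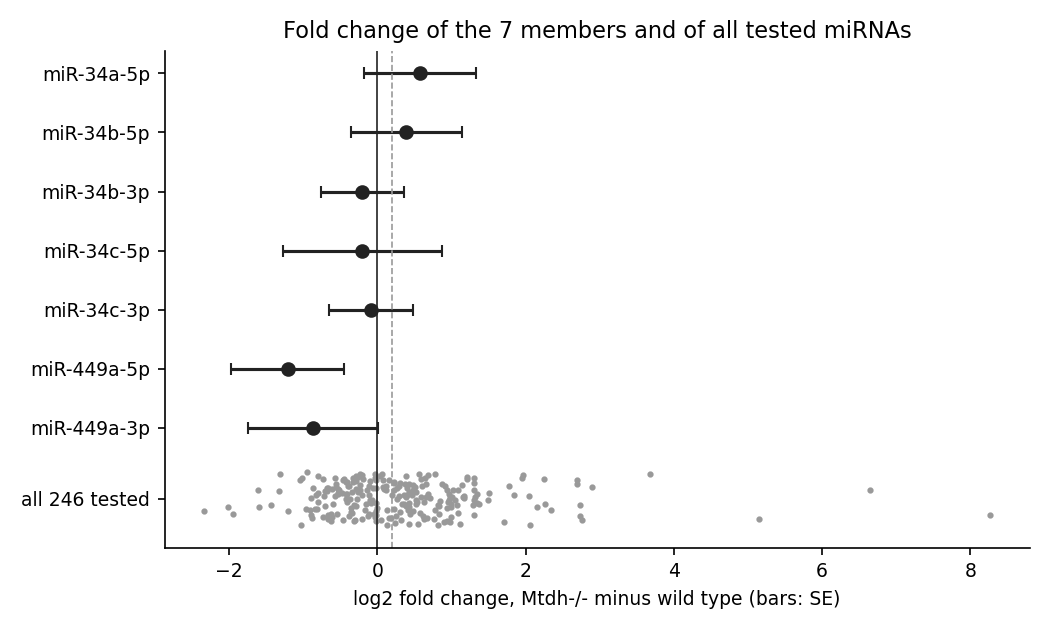
Log2 fold change, Mtdh-/- minus wild type, of the 7 members with SE as bars, above the values of all 246 tested miRNAs as grey points. The dashed line is the median of all tested miRNAs at 0.19, and the members lie between -1.21 and 0.57.

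Added together, the 7 members held 54385, 19177 and 42645 CPM in Mtdh-/- 1, 2 and 3, against 61825 and 55829 CPM in wild type 1 and 2. All 3 Mtdh-/- libraries were below both wild-type libraries in this sum, although no single member separated them. The mean sum was 38736 ± 17926 CPM in Mtdh-/- (SD, n = 3) and 58827 ± 4239.8 CPM in wild type (SD, n = 2), given as a description without a test. The difference of -20092 CPM was -10312 CPM without Mtdh-/- 2. In counts of the exact mature sequence the sums were 44383, 13226 and 35692 CPM in Mtdh-/- 1, 2 and 3, against 50086 and 40932 CPM in wild type 1 and 2, and the genotypes overlapped.

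The 5p arms made up most of the sum in each library. miR-34c-5p supplied 63.6%, 28.5% and 76.6% of the family's counts in Mtdh-/- 1, 2 and 3, against 80.1% and 19.4% in wild type 1 and 2. miR-449a-5p supplied 18.4%, 33.5% and 12.3% in Mtdh-/- 1, 2 and 3, against 11.5% and 66.1% in wild type 1 and 2. miR-34c-5p was the leading member in Mtdh-/- 1, Mtdh-/- 3 and wild type 1, and miR-449a-5p in Mtdh-/- 2 and wild type 2. The 3p arms together came to 487, 1570.0 and 1180.2 CPM in Mtdh-/- 1, 2 and 3, against 962 and 1659.5 CPM in wild type 1 and 2.

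**Figure D3:**
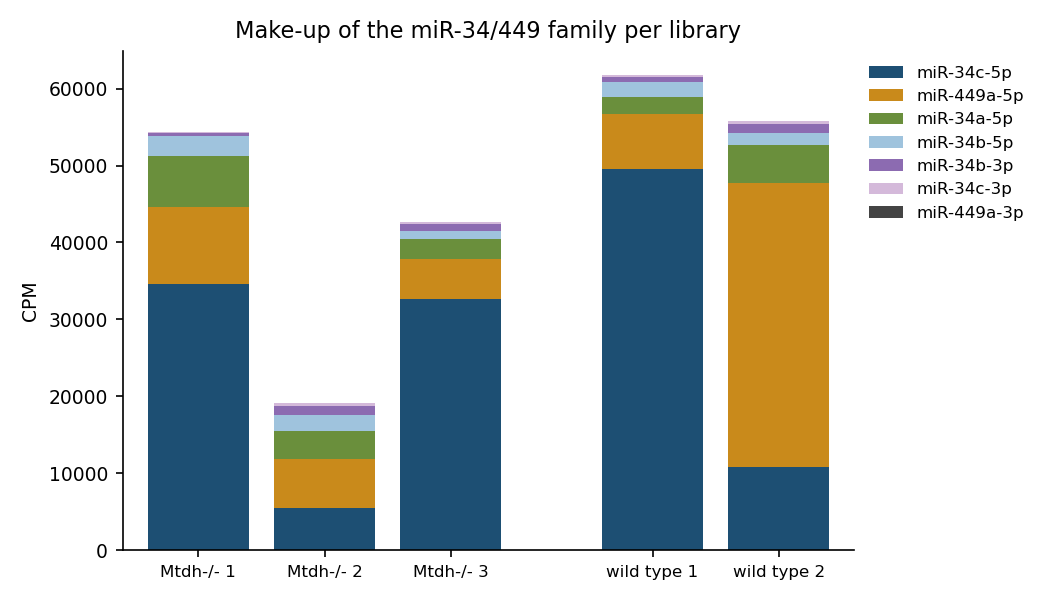
Stacked bars give the CPM of each member in each library. The sum is lowest in Mtdh-/- 2 at 19177 CPM, and miR-449a-5p is the largest segment in wild type 2 and Mtdh-/- 2.

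Both arms were counted for 3 member hairpins. For miR-34b the 3p arm took 11.4%, 34.2% and 46.0% of the hairpin's counts in Mtdh-/- 1, 2 and 3, against 25.9% and 44.9% in wild type 1 and 2. Mtdh-/- 1 had the lowest share of the 5 libraries and Mtdh-/- 3 the highest, and the 95% Wilson interval of Mtdh-/- 1 (10.1 to 12.8%) lay apart from those of the others. The mean share was 30.5% ± 17.6 in Mtdh-/- (SD, n = 3) and 35.4% ± 13.4 in wild type (SD, n = 2). An exact two-sided permutation test of the genotype labels, which doubles the smaller one-sided p up to a ceiling of 1, gave p = 1. With 10 splits of 3 against 2 libraries, that test cannot reach a p under 0.05.

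The hairpin of miR-34c was far more one-sided. Its 3p arm took 0.348%, 6.77% and 0.846% of counts in Mtdh-/- 1, 2 and 3, against 0.445% and 3.27% in wild type 1 and 2. The shares were high in Mtdh-/- 2 and wild type 2, the same libraries in which miR-34c-5p was low. In those libraries there were 13.8 and 29.6 counts of the 5p arm for each of the 3p arm, against 117 to 287 in the 3 others. The mean share was 2.66% ± 3.57 in Mtdh-/- (SD, n = 3) and 1.86% ± 2.00 in wild type (SD, n = 2; exact permutation test, two-sided, p = 1).

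For miR-449a the 3p arm took 0.180%, 0.910% and 0.589% of counts in Mtdh-/- 1, 2 and 3, against 1.05% and 0.142% in wild type 1 and 2. Wild type held both the highest and the lowest share (exact permutation test, two-sided, p = 1). Wilson intervals cover counting error only, since reads without molecular identifiers are not independent molecules.

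In the limma test of the log2 ratio of 3p to 5p counts, 0 of the 3 hairpins differed between genotypes, where 0% of 129 precursors with both arms did (0 at an unadjusted p under 0.05). The differences of that ratio were -0.48 ± 1.23 (SE) for miR-34b, 0.07 ± 1.69 (SE) for miR-34c and 0.29 ± 1.37 (SE) for miR-449a, each with an adjusted p of 0.988 by limma. The sign turned for miR-34b without Mtdh-/- 1 (0.32) or wild type 2 (0.13), for miR-34c without Mtdh-/- 2 (-1.17) or wild type 1 (-1.38), and for miR-449a without Mtdh-/- 2 (-0.22) or wild type 2 (-1.17). The SD of the ratio over the 5 libraries was 1.90 for miR-34c, 1.36 for miR-449a and 1.12 for miR-34b, beside a median of 1.54 over the 129 precursors.

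The 2 hairpins of the chromosome 9 cluster were then compared arm by arm, a comparison chosen after the values were seen. The count of miR-34c-3p was 0.347, 0.356 and 0.320 times that of miR-34b-3p in Mtdh-/- 1, 2 and 3, against 0.333 and 0.295 times in wild type 1 and 2. The ratio was nearly level over the 5 libraries, and the 95% counting intervals of all 5 overlapped. For the 5p arms, miR-34c-5p was 12.7, 2.55 and 32.0 times miR-34b-5p in Mtdh-/- 1, 2 and 3, against 26.1 and 7.13 times in wild type 1 and 2. That ratio was lowest in Mtdh-/- 2 and highest in Mtdh-/- 3, so the same genotype held both ends. The SD of the log2 ratio was 0.11 for the 3p arms and 1.48 for the 5p arms, beside a median of 1.26 over all 30135 pairs of tested miRNAs, of which 3 pairs had a smaller SD than the 3p arms. In counts of the exact mature sequence the 3p ratio ranged from 0.248 to 0.348 and the 5p ratio from 3.16 to 48.5.

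**Figure D4:**
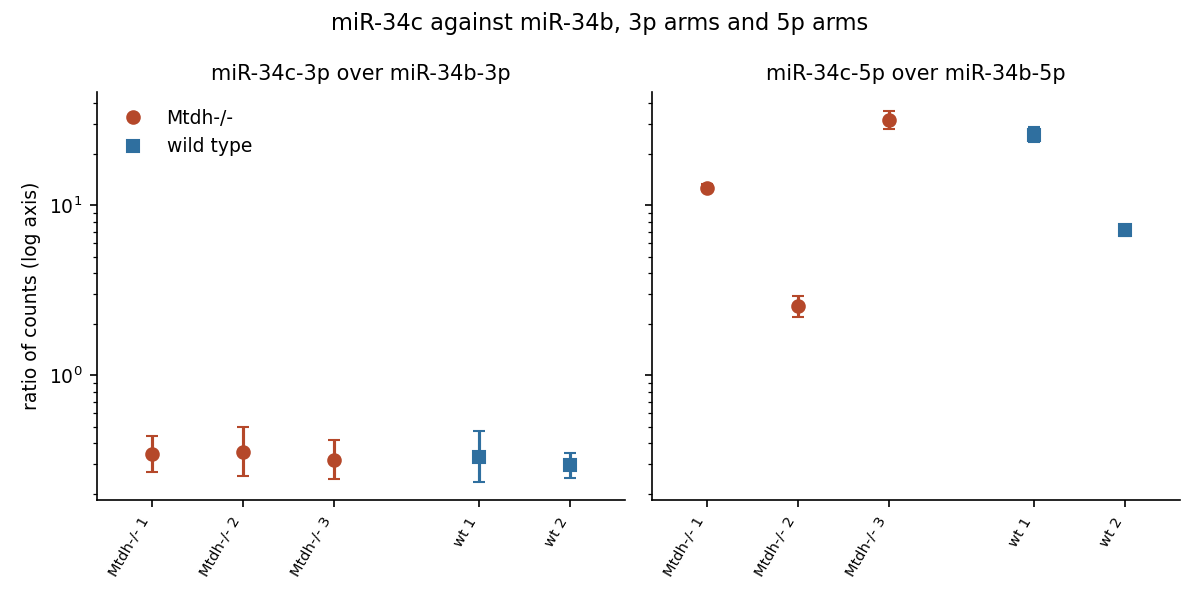
Ratio of counts of miR-34c to miR-34b in each library, on a log axis, for the 3p arms and for the 5p arms, with 95% Wilson counting intervals as bars. The 3p ratio stays between 0.295 and 0.356, while the 5p ratio runs from 2.55 to 32.0.

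For all 7 members the reference mature sequence was also the most abundant one, so counts of either are the same. Reads that differ from it, for example by an end base added or missing, count as other isoforms. The exact sequence made up 91.5%, 68.8% and 88.6% of miR-34c-5p counts in Mtdh-/- 1, 2 and 3, against 84.9% and 72.3% in wild type 1 and 2. It was low in the same libraries, Mtdh-/- 2 and wild type 2, in which the level of miR-34c-5p was low. For miR-34a-5p it made up 44.0%, 64.5% and 55.2% in Mtdh-/- 1, 2 and 3, against 55.8% and 57.8% in wild type 1 and 2. Mtdh-/- 1, where miR-34a-5p was most abundant, had the lowest share, with a 95% Wilson interval of 42.6 to 45.4%.

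miR-449a-5p kept a narrow range, with 74.5%, 76.2% and 76.0% exact in Mtdh-/- 1, 2 and 3, against 71.3% and 76.5% in wild type 1 and 2, although its level varied 7.06-fold. miR-34b-5p had 74.6%, 55.5% and 58.3% exact in Mtdh-/- 1, 2 and 3, against 52.5% and 58.3% in wild type 1 and 2. Mtdh-/- 1 stood above the 4 others, which lay close together. miR-34b-3p ranged from 65.9% to 72.9% exact over the 5 libraries, miR-34c-3p from 54.2% to 72.99%, and miR-449a-3p, on 7 to 25 counts, was at least 84.6% exact in each.

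By limma on the log2 ratio of exact to other counts, 0 members differed between genotypes, where 0% of 214 miRNAs did (3 at an unadjusted p under 0.05). miR-449a-3p was below the minimum mean of 20 counts and was not tested there. The 6 tested members had differences of -0.62 ± 0.42 (SE, miR-34c-3p) to 0.57 ± 0.83 (SE, miR-34c-5p), all with an adjusted p of 0.976. The sign turned for miR-34a-5p without Mtdh-/- 1 (0.18) and for miR-449a-5p without wild type 1 (-0.069). The difference of miR-34c-5p was 0.011 without wild type 2 and 1.25 without Mtdh-/- 2, and that of miR-34b-5p, 0.47 over all libraries, was 0.087 without Mtdh-/- 1. That of miR-34c-3p was -0.37 without wild type 2.

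**Figure D5:**
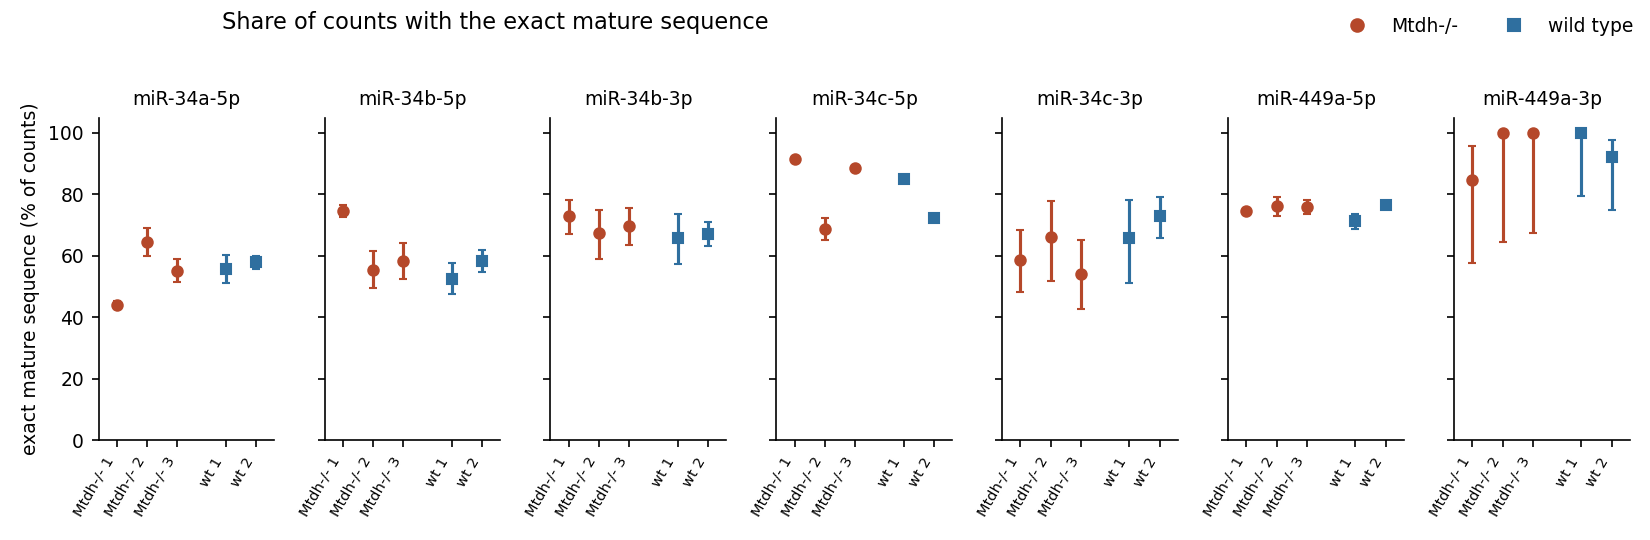
Percent of each member's counts that are the exact mature sequence, per library, with 95% Wilson intervals. miR-34c-5p spans 68.8% to 91.5% and miR-449a-5p 71.3% to 76.5%.

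Relatives of the members were rare. miR-449c-5p, from the hairpin next to Mir449a, had 16, 3 and 5 counts in Mtdh-/- 1, 2 and 3, against 3 and 21 counts in wild type 1 and 2, and miR-449c-3p had 2 counts in wild type 2 and none elsewhere. No count of miR-449c-5p was the exact mature sequence of 21 bases. Its most abundant sequence in the deposited sheet had 25 bases and is shown because it runs past the mature end, with the mature part in capitals.
most abundant mmu-miR-449c-5p sequence: AGGCAGUGCAUUGCUAGCUGGcugu

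This sequence lies whole in the RefSeq hairpin of miR-449c and accounted for 14, 3 and 5 counts in Mtdh-/- 1, 2 and 3, against 3 and 19 counts in wild type 1 and 2.

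The miRNAs most like each 5p member in their profile over the 5 libraries were found among 218 others, by the root mean square difference of centred log2(CPM + 1). These are descriptions of 5 points that share library and depth. For miR-34a-5p they were miR-497-5p (0.098), miR-26b-5p (0.303) and miR-27a-3p (0.325). miR-497-5p stood at 537, 329 and 209 CPM in Mtdh-/- 1, 2 and 3, against 191 and 468 CPM in wild type 1 and 2, in the same order of libraries as miR-34a-5p.

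miR-449a-5p was most like miR-375-3p (0.263), miR-471-5p (0.284) and miR-742-5p (0.327). miR-375-3p, known from endocrine and epithelial cells, stood at 4389, 4381 and 2666 CPM in Mtdh-/- 1, 2 and 3, against 3700.2 and 14710.2 CPM in wild type 1 and 2. Wild type 2 was again far above the rest. miR-34b-5p was most like miR-155-5p (0.401), miR-101b-3p (0.468) and miR-145a-5p (0.469), and miR-34c-5p was most like miR-298-5p (0.623), miR-10b-5p (0.702) and miR-10a-5p (0.819). No 5p member had another member among its 3 nearest. The nearest member to miR-34b-5p was miR-34a-5p at place 6, and miR-34b-5p came at place 12 for miR-34a-5p. For miR-449a-5p it was miR-34a-5p at place 37, and for miR-34c-5p it was miR-34b-5p at place 63.

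miRNAs of the cell types in testis are set beside the family's levels, from lists of names. In RNA of a whole organ, fewer cells of a type and less RNA per cell cannot be told apart. Of the X-linked cluster known from spermatocytes, 14 of 14 listed miRNAs were tested and 12 had a fold change below 0. The share below 0 was 44.3% over all tested miRNAs, and the median of the 14 was -0.33. The list leaves out some arms of these hairpins, and arms left out had fold changes on both sides of 0. The summed level of the 14 was 38586, 45014 and 68463 CPM in Mtdh-/- 1, 2 and 3, against 75070.5 and 93857 CPM in wild type 1 and 2. As with the family's sum in counts of all isoforms, every Mtdh-/- library was below both wild-type libraries. The family's sum overlapped between genotypes in counts of the exact mature sequence. Its 3 most abundant members, miR-470-5p, miR-871-3p and miR-881-3p, overlapped between genotypes, and 2 of the 14 had all 3 Mtdh-/- values below the wild-type ones, near the 14.2% of all tested miRNAs that did not overlap. miR-470-5p reached 40405 CPM in wild type 2, the library high in miR-449a-5p, and 6942 to 11543 CPM in the others.

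The spermatid list (3 of 4 matched: miR-191-5p, miR-184-3p and miR-122-5p) summed to 6094 to 16964 CPM in Mtdh-/- and 11374 to 15133 CPM in wild type. The spermatogonial list (10 of 10, led by miR-21a-5p, miR-146b-5p and miR-20a-5p) summed to 24455 to 46415 CPM in Mtdh-/- and 24089 to 30543 CPM in wild type, with its highest value in Mtdh-/- 2, where the family's sum was lowest. The Sertoli cell miRNAs miR-202-5p and miR-202-3p summed to 1020.5 to 1899 CPM in Mtdh-/- and 1113 to 2856 CPM in wild type.

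Of the 9 tested miRNAs of smooth muscle and stroma, all 9 had a fold change above 0, with a median of 1.35, where 137 of the 246 tested miRNAs did. For 3 of the 9, every Mtdh-/- value was above the wild-type ones. Of all tested miRNAs, 14.2% did not overlap, in one direction or the other. The list, led by miR-143-3p, miR-10a-5p and miR-199a-3p, summed to 101402 to 128795 CPM in Mtdh-/- and 80633 to 123633 CPM in wild type. The endothelial miRNAs miR-126-3p and miR-126-5p summed to 11160, 1460.2 and 3688 CPM in Mtdh-/- 1, 2 and 3, against 3177 and 5612 CPM in wild type 1 and 2, highest in Mtdh-/- 1, where miR-34a-5p was highest too. The blood list (6 of 7 matched, led by miR-142-5p, miR-451a and miR-142-3p) summed to 301 to 498 CPM in Mtdh-/- and 337 to 544 CPM in wild type. The duct and epididymis epithelium list (8 of 8, led by miR-375-3p, miR-203-3p and miR-200a-3p) summed to 6527 to 10373 CPM in Mtdh-/- and 7828 to 21401 CPM in wild type. No matched marker was at 0 in all 5 libraries, but not every matched marker was tested. Tested were 2 markers of the spermatid list, 9 of the spermatogonial list, 2 of the blood list and 6 of the epithelium list. No tested marker passed the edgeR test, and the part of these cell types in the family's levels was not tested.

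The authors also deposited tables of single Mtdh-/- libraries, each set against the same control group, in which a ratio above 1 means a higher value in Mtdh-/-. In the authors' deposited table of Mtdh-/- 1, with 28 miRNAs up and 86 down, miR-34b-5p was listed at a ratio of 2.17, miR-449a-5p at 0.455, miR-34b-3p at 0.415, miR-34c-3p at 0.379 and miR-449a-3p at 0.362. The authors' deposited table of Mtdh-/- 2, with 111 up and 87 down, listed miR-449a-5p at 0.288 and miR-34c-5p at 0.148. The authors' deposited table of Mtdh-/- 3, with 44 up and 54 down, listed miR-449a-5p alone of the members, at 0.238. miR-449a-5p was thus the member listed for all 3 libraries, but the tables share their controls, and wild type 2 held 5.18 times the CPM of wild type 1. No member was listed in the authors' deposited tables of groups of libraries.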

How the data were processed

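Small RNA of testis was sequenced in 5 libraries. Frozen testes were extracted with mirVana reagents and sequenced after TruSeq (Illumina) library preparation, per the labels' protocols. Novoalign 2.07.11 is named in the submitters' processing notes, while the build, the trimming and how tags were counted were not given in the sources used here.

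Raw counts of tags were deposited, per the file headers, for all isoforms, the most abundant sequence and the exact mature sequence. A second sheet deposited by the authors holds the same tags scaled by a factor per library and rounded, a score used in 1 alternative. The fold ratio in the authors' tables uses, per the file headers, counts of the most abundant sequence after adding 10. A further 182 columns of per-library values, and the piRNA tables, were not used.

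Where a miRNA had several precursor lines, that of the largest total stood for it, and 19 miRNAs with a most abundant sequence identical to another were joined, leaving 717. Blank cells were read as 0. Levels were tested with edgeR 4.0.16 (TMM, filterByExpr, robust quasi-likelihood; SE from fold change and F statistic). Arm ratios (mean of at least 20 counts) and exact-mature ratios (same minimum) were tested with limma 3.58.1 on log2 values with 0.5 added to each count. A library with 0 counts of a hairpin or miRNA was missing from that ratio's fit, which concerned no member. Tests were tried on simulated data first, where edgeR used library totals alone in place of TMM. The outcome of those trials is not given here, so they say nothing on how large a change these fits could find. Alternatives were RLE scaling, library totals, no filter, DESeq2 1.42.0, other counts, other pseudocounts and minima, leaving out each library, and a replicate block.

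The family and so its members, the lists and the tests were chosen with earlier results of these data known, although the rule for the members reads only names. Named miRNAs are the members, other arms of their hairpins and of the neighbouring hairpins, miRNAs sharing a seed, the 3 most like each 5p member (mean of at least 50 CPM), and the 3 most abundant of each of 8 marker lists. Of the listed markers, 4 stand in the sheet under older names (such as miR-126-3p) and were matched by their RefSeq sequence.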

Additional observations from a re-analysis of the deposited data

How the results depend on the processing

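The count of miRNAs called was 0 under every alternative run except one: without a filter on low counts it was 5 of 512 (3 higher and 2 lower), none a member. The counts of changed arm ratios and of changed exact-mature ratios were 0 throughout. Outside the fits that leave out 1 library, the fold changes of the 7 members kept their sign under all 9 alternatives but not their size: they ran from 0.18 to 0.72 for miR-34a-5p, 0.086 to 0.71 for miR-34b-5p, -0.39 to -0.24 for miR-34b-3p, -0.55 to -0.16 for miR-34c-5p, -0.42 to -0.15 for miR-34c-3p, -1.61 to -0.82 for miR-449a-5p and -1.01 to -0.76 for miR-449a-3p. The log2 arm ratio of miR-34c turned to -0.22 with exact-mature counts and likewise, at -0.22, with most-abundant-sequence counts, which are the same counts here.

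With 1 library left out, log2 fold changes ranged from -0.28 to 0.88 for miR-34a-5p, -0.27 to 0.90 for miR-34b-5p, -0.53 to 0.0058 for miR-34b-3p, -1.01 to 1.73 for miR-34c-5p, -0.37 to 0.13 for miR-34c-3p and -1.88 to 0.0022 for miR-449a-5p. Differences of the log2 arm ratio ranged from -1.08 to 0.32 for miR-34b, -1.38 to 1.53 for miR-34c and -1.17 to 1.74 for miR-449a. Those of the exact-mature ratio ranged from -0.42 to 0.18 for miR-34a-5p and -0.069 to 0.32 for miR-449a-5p. The difference of the family's sum ranged from -27916 to -10312 CPM. Leaving out a wild-type library leaves 1, which is assumed to vary like the others.

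Replicate numbers were shared by 2 libraries of each genotype, with nothing in the labels that makes them pairs. Deviations of same-numbered libraries from their genotype means correlated at -0.455 (number 1) and 0.019 (number 2) across miRNAs. The deviations of the 2 wild-type libraries mirror each other, so each value has the opposite sign with the other wild-type library. Mtdh-/- 3 and wild type 1, with unlike numbers, correlated at 0.452, so these values cannot tell whether the libraries are pairs. With a replicate block 0 miRNAs were called (12 at an unadjusted p under 0.05), and Mtdh-/- 3 has no partner in that fit. miR-449a-5p then had a log2 fold change of -0.82.

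Depth limits miR-449a-3p most among the members, with 7 to 25 counts per library, and outside them miR-449c-5p, with 3 to 21, and miR-449c-3p, with 2 counts in all.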

Other observations

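The 7 members form 21 pairs, and the SD of the log2 ratio of counts over the 5 libraries was 0.11 to 1.98 for them, with a median of 1.16, beside 1.26 for all pairs of tested miRNAs. The most even pair after miR-34b-3p with miR-34c-3p was miR-34a-5p with miR-34b-5p, from different chromosomes, at 0.55. The least even was miR-34c-5p with miR-449a-5p, the most abundant members, at 1.98. miR-449a-5p was 0.289, 1.18 and 0.160 times miR-34c-5p in Mtdh-/- 1, 2 and 3, against 0.144 and 3.40 times in wild type 1 and 2. Both arms of a hairpin varied against each other with an SD of 1.12 for miR-34b, 1.36 for miR-449a and 1.90 for miR-34c, all above that of miR-34b-3p with miR-34c-3p. These pairs were compared after the values were seen.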
